A study of Arabidopsis thaliana with 6 samples.

Results

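The regions described here are the LFY-bound regions of p35S:LFY seedlings that lay between genes but close to one. A region was included when its midpoint fell in no annotated gene of any type and was at most 1000 bp from the nearest end of a protein-coding gene. Of the 1954 regions called in p35S:LFY, 700 (35.8%) met this rule. It used position only. A further 853 regions (43.7%) had their midpoint inside a protein-coding gene, 324 (16.6%) were intergenic but farther than 1 kb from one, and 77 (3.94%) lay in genes of other types only.

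LEAFY (LFY) is a plant transcription factor that switches meristems to flower formation and activates the genes of floral organ identity. It binds DNA through its C-terminal domain, and its N-terminal SAM domain lets LFY molecules assemble into oligomers. In the compact Arabidopsis genome, much of the DNA that recruits transcription factors lies in the short intergenic stretches beside genes, where promoters are found.

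The chromatin came from 15-day-old whole seedlings, aerial parts and roots together, grown on plates in long days and immunoprecipitated with 1 rabbit antibody raised against the LFY C-terminal part. There were 3 genotypes with 2 biological replicates each. The p35S:LFYTERE seedlings (line CA29-17) carried LFY changed at a pair of SAM domain residues (T75E and R112E), the p35S:LFY seedlings (line CA26-15) carried unchanged LFY, and Col-0 seedlings carried no transgene and served as the control. Both transgenes were driven by the constitutive 35S promoter and each was represented by a single line. The bound regions are therefore those of LFY made throughout a seedling, not of LFY in floral meristems.

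Each region came with 2 values. The first was its rank in the peak calling, where 1 is best. The second was the coverage fold reduction (CFR), the normalised read coverage of the region in p35S:LFY divided by that in p35S:LFYTERE. The ratio runs with the mutant in the denominator, so a CFR above 1 means less coverage with LFYTERE. A separate list gave the 176 regions called in p35S:LFYTERE. The replicates had been fused before deposit, so no value has a replicate error. The intervals below are 95% intervals over regions, and because neighbouring regions are not independent the p-values are smaller than they should be. Read totals per library were not used here. The paper lists fewer mapped reads for the p35S:LFYTERE libraries than for the p35S:LFY libraries. Whether depth affected which regions were called in p35S:LFYTERE was not tested.

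Per length of DNA, bound regions were densest in the intergenic stretches beside genes. DNA that is intergenic and within 1 kb of a protein-coding gene made up 19.0% of the bases of the chromosomes and held 30.9 LFY regions per Mb. The density was 16.1 per Mb in intergenic DNA beyond 1 kb and 13.2 per Mb inside protein-coding genes, which take up 54.1% of the bases. Within the first kilobase the density was 36.2 per Mb at 1 to 250 bp from the gene end (325 regions), 27.7 at 251 to 500 bp (168 regions), 25.5 at 501 to 750 bp (111 regions) and 29.2 at 751 to 1000 bp (96 regions). In steps of 50 bp, it peaked at 41.3 per Mb between 51 and 100 bp. The first 50 bp beside the gene, at 32.5 per Mb, were below that peak. These densities are descriptions, since the share of each kind of DNA that reads can be placed on was not measured here.

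**Figure D1:**
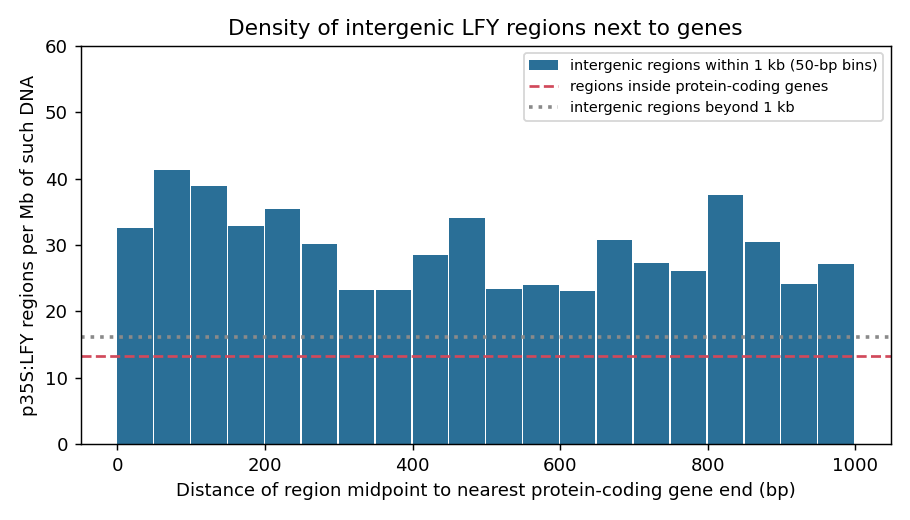
Bars give the number of p35S:LFY regions per Mb of intergenic DNA in 50-bp steps of distance between the region midpoint and the nearest protein-coding gene end (x axis, bp). Lines give the density of regions inside protein-coding genes (dashed, 13.2 per Mb) and of intergenic regions beyond 1 kb (dotted, 16.1 per Mb). The highest bar, 41.3 per Mb, stands at 51 to 100 bp.

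The median distance of the 700 midpoints to the nearest gene was 279 bp (interval 247 to 313, quartiles 119 and 576, range 1 to 997), and 151 regions (21.6%) were within 100 bp. The gene on the other side lay at a median of 1374 bp (interval 1245 to 1506, range 25 to 36431). The gap between the flanking genes had a median of 1813 bp (interval 1684 to 1935, range 46 to 36658). In 271 regions (38.7%) both flanking genes were within 1 kb, so the nearest gene was not the only near gene. In the other 429 only 1 flank was that close. Although every midpoint was intergenic, 254 regions (36.3%) reached into a protein-coding gene with at least 1 base, and 43 (6.14%) reached into the genes on both sides.

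In all, 937 of 27444 protein-coding genes (3.41%) were within 1 kb of such a region. The 700 regions lay in 674 gaps, 113 of which (16.8%) also held a gene that does not code for protein. Chromosomes 1 to 5 held 190, 113, 141, 115 and 141 regions. The gene table used gives no strand, so whether the near gene end was a start or an end was not analysed here.

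In gaps of at most 2000 bp, 201 of 390 regions (51.5%, exact binomial interval 46.5 to 56.6%) lay in the middle of the gap, that is nearer to its centre than to either end, which held 49.4% of the bases of those gaps. The midpoints were thus as frequent in the middle of these gaps as the length of that stretch, within the interval.

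CFR in these intergenic regions had a median of 7.43 (interval 6.89 to 8.02, quartiles 4.93 and 13.1, range 1.67 to 4536). It was above 3 in 665 regions (95.0%), above 10 in 238 (34.0%), above 20 in 101 (14.4%) and above 50 in 12 (1.71%), while 5 (0.714%) had a CFR of at most 2. Of all p35S:LFY regions, 93.6% had a CFR above 3, 35.3% above 10, 13.5% above 20 and 1.74% above 50. A CFR of at most 2 was found in 0.768% of them. The shares in the class were thus near those of the whole list. The paper states a larger share above 10 for its p35S:LFY regions than the deposited values give. The reason for this difference was not tested. The median CFR was 7.01 (interval 6.61 to 7.28) for regions inside protein-coding genes and 9.82 (interval 9.08 to 11.1) for distal intergenic regions.

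Set against the median of all 1954 regions (7.40), 352 of 700 intergenic regions within 1 kb (50.3%) had a higher CFR, against 200 of 324 distal intergenic regions (61.7%). The difference of -11.4 percentage points (interval -17.8 to -4.90) passed the threshold (two-sided Fisher's exact test, p = 0.00074, adjusted p = 0.00296 over the 8 comparisons made). It missed the threshold in 2 alternatives, at -5.65 points (adjusted p = 0.667 by Fisher's exact test) with the limit set at 2000 bp and at -7.97 points (adjusted p = 0.316 by Fisher's exact test) among the best 1000 ranks. Inside protein-coding genes 387 of 853 regions (45.4%) were above the median. The near intergenic regions were 4.92 points higher (interval -0.0743 to 9.88), which did not pass (Fisher's exact test, p = 0.0588, adjusted p = 0.157), though it did with the limit at 2000 bp (7.85 points, adjusted p = 0.0046 by Fisher's exact test).

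**Figure D2:**
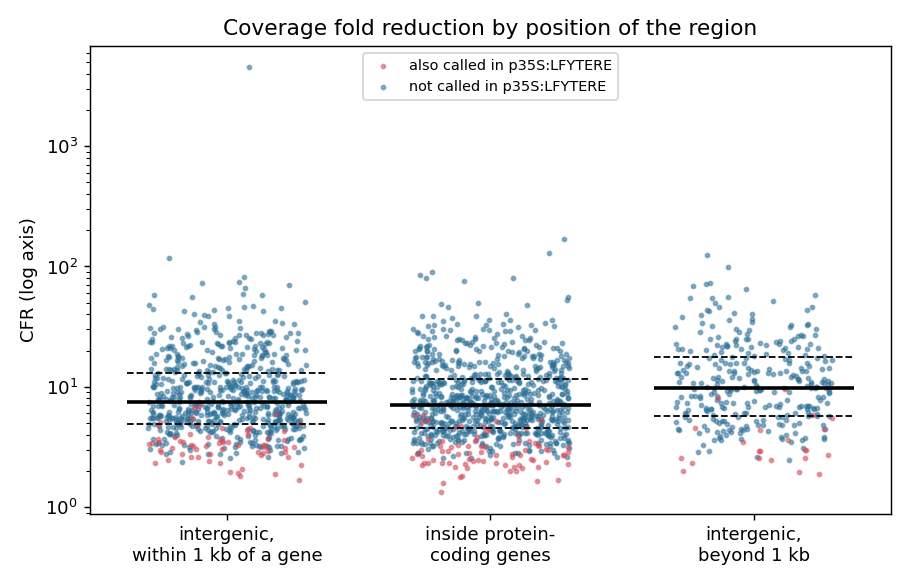
CFR (y axis, log scale) of each p35S:LFY region, grouped by where its midpoint lies, with solid lines at the medians and dashed lines at the quartiles. Colours mark regions that were also called in p35S:LFYTERE, and 1 distal region with an infinite CFR is not drawn. The median was 7.43 within 1 kb of a gene, 7.01 inside genes and 9.82 beyond 1 kb.

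The plot of CFR by position shows wide overlap: the quartiles were 4.93 and 13.1 within 1 kb, 4.52 and 11.6 inside genes, and 5.70 and 17.99 beyond 1 kb. No difference in rank passed the threshold. The median rank was 978.5 (interval 902 to 1040), and 350 of 700 regions (50%) had a rank of 977 or better, against 428 of 853 (50.2%) inside genes and 164 of 324 (50.6%) beyond 1 kb. The differences were -0.176 points (interval -5.16 to 4.81, Fisher's exact test, adjusted p = 0.959) and -0.617 points (interval -7.16 to 5.94, Fisher's exact test, adjusted p = 0.959). The first became -8.20 points (adjusted p = 0.0126 by Fisher's exact test) when only regions with no base in any gene were kept. That setting leaves out wide regions more readily, and rank and width went together, so no difference in rank is read from it.

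Width did differ. The intergenic regions within 1 kb had a median width of 345.5 bp (interval 336 to 353, range 165 to 766), against 396 bp (interval 387 to 403) inside genes and 336 bp (interval 323 to 349) beyond 1 kb. In this class 293 of 700 (41.9%) were wider than the series median of 365 bp, against 525 of 853 (61.5%) inside genes. The difference was -19.7 points (interval -24.5 to -14.7, Fisher's exact test, p = 1.05e-14, adjusted p = 8.41e-14), and it passed in 8 of 8 alternatives. The alternative that kept only regions with no base in any gene favours narrow regions in this class by construction. Against the distal regions, with 118 of 324 (36.4%), the difference of 5.44 points (interval -1.03 to 11.7) did not pass (Fisher's exact test, adjusted p = 0.201), though it did with the limit at 500 bp (9.05 points, adjusted p = 0.00894 by Fisher's exact test).

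Within the class, CFR was somewhat higher farther from the nearest gene, with overlapping intervals. Its median was 7.09 at 1 to 250 bp, 7.44 at 251 to 500 bp, 8.23 at 501 to 750 bp and 8.40 at 751 to 1000 bp, and Spearman's rho over the 700 regions was 0.10. A CFR above 10 was found in 29.5% (exact binomial interval 24.6 to 34.8%), 36.3%, 37.8% and 40.6% of the regions in these 4 distance classes, in that order. Over the same distances the median rank went up with distance, at 912, 945, 1018 and 1106 in that order (rho 0.11). These coefficients describe the regions, which share libraries and can share a gap.

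Gap size separated the regions a little more at its lower end. Gaps of at most 500 bp had the highest density of regions, 54.6 per Mb, with 92 regions. The density was 37.8 per Mb in gaps of 501 to 1000 bp (108 regions), 31.0 in gaps of 1001 to 2000 bp (190), 29.2 in gaps of 2001 to 5000 bp (239) and 18.6 in gaps over 5000 bp (71). The regions in the smallest gaps had the lowest median CFR, 5.94 (interval 5.44 to 6.85), against 8.06, 7.42, 7.88 and 9.06 in the larger classes in order of size. A CFR above 10 was found in 14 of these 92 (15.2%, exact binomial interval 8.58 to 24.2%), against 32.1 to 39.4% in the other classes. The smallest gaps also held the widest regions, with a median of 386 bp, against 331 to 352.5 bp in the others.

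**Figure D3:**
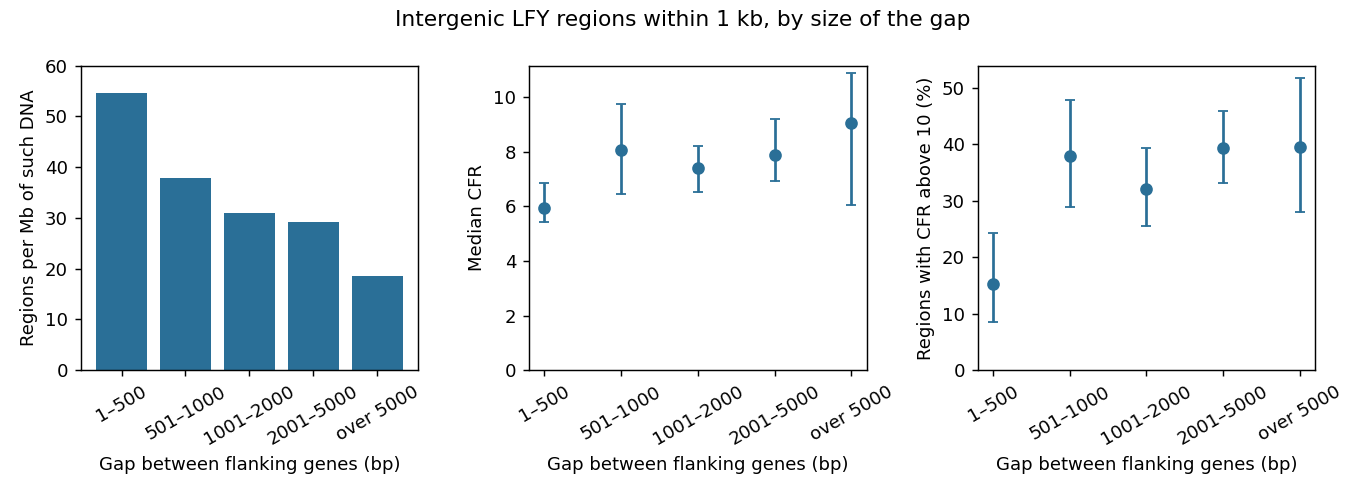
Intergenic p35S:LFY regions within 1 kb of a gene, by the size of the gap between the flanking genes (x axis, bp). Panels give regions per Mb of such DNA, the median CFR and the percentage with a CFR above 10, and bars on points are 95% intervals over regions. Regions in gaps of 1 to 500 bp had the highest density (54.6 per Mb) and the lowest median CFR (5.94).

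Regions with both flanking genes within 1 kb had a median CFR of 6.79 (interval 6.02 to 7.69) and a median rank of 876. Those with 1 such flank had a median CFR of 7.87 (interval 7.04 to 8.60) and a median rank of 1029. The intervals overlap for CFR. The 254 regions that reached into a gene had better ranks (median 807.5) and were wider (median 385.5 bp) than the 446 that did not (1067.5 and 328 bp), with median CFR values of 7.22 and 7.63. At a given midpoint distance a wider region reaches a gene more readily, so the width difference follows at least in part from the grouping. Rank and width went together over the 700 regions (rho -0.60), so the values for rank and width are not separate observations.

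The best rank in the class was 2 (chromosome 3, 18628889 to 18629637), 349 bp from KICP-02 and 769 bp from AT3G50250, with a CFR of 8.71. It was 749 bp wide, near the upper end of the class. Rank 20 (chromosome 2, 7303345 to 7303899, CFR 7.11) lay in a gap of 302 bp beside PIP2;8, an aquaporin. Rank 22 (chromosome 5, 1152554 to 1153115, CFR 7.96) lay between PKS4, a phytochrome kinase substrate gene, and MC9, a metacaspase gene, at 207 and 906 bp.

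Rank 15 (chromosome 1, 10303377 to 10304114, CFR 12.4) was 327 bp from AT1G29430 (SAUR62), a small auxin up RNA gene, and 145 bp from AT1G29435. Rank 23 (chromosome 4, 6030390 to 6030881) was 818 bp from AT4G09530 (SAUR17), another of that family, and had a CFR of 47.7. Of the 8 members of best rank, rank 5 alone was also called in p35S:LFYTERE (chromosome 5, 19044994 to 19045728, 978 bp from AT5G46910), with CFR values of 4.13 in the LFYTERE list and 4.83 in the p35S:LFY list. The remaining ranks were 6 beside AT1G10095 (57 bp, CFR 7.59) and 8 beside AT2G25737 (157 bp, CFR 29.0). CFR among the 8 thus ran between 4.83 and 47.7, with no shared level at the top of the ranking.

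The 8 regions of highest CFR had ranks between 98 and 1855. The largest, 4536, was in a region of 258 bp and rank 1689 (chromosome 1, 21189340 to 21189597) that lay 237 bp from AT1G56553 and 1099 bp from RGXT3, a xylosyltransferase gene of cell wall pectin. A ratio of that size depends on a very small denominator, here the coverage in p35S:LFYTERE. The paper set very high or infinite CFR values of this origin to 300, and the value given here is the deposited one. The next was 117.6 at rank 1855 (chromosome 5, 19906557 to 19906814), 514 bp from AT5G49110. A CFR of 82.4 was found at rank 230 (chromosome 4, 11996536 to 11996855), 360 bp from AT4G22850.

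Beside PUB23, a U-box ubiquitin ligase gene, a region of rank 494 (chromosome 2, 15082199 to 15082491, 510 bp) had a CFR of 72.5. Beside ATHB13, a homeodomain leucine zipper gene, a region of rank 795 (chromosome 1, 26257642 to 26258019, 958 bp) had a CFR of 70.1. The gene on its far side, at 4143 bp, was CMT3, a DNA methyltransferase of CHG sites. The others of the 8 highest were next to AT5G62140 (CFR 74.8), AT5G44990 (66.5) and AT4G03450 (59.4), and none of the 8 was called in p35S:LFYTERE.

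The lowest CFR, 1.67 at rank 1655 (chromosome 4, 14077323 to 14077597), was 216 bp from HAE, a receptor kinase gene of floral organ abscission. A CFR of 1.82 was found 22 bp from GUT2 and 298 bp from APT1, an adenine phosphoribosyltransferase gene (chromosome 1, 9531358 to 9531665). One of 1.87 lay 483 bp from TIF3H1, a translation initiation factor gene, and one of 1.90 lay 109 bp from ACT7, an actin gene. Next came Hrd1B, a ubiquitin ligase gene of the endoplasmic reticulum (59 bp, CFR 1.96), and SLK2, a transcriptional co-regulator gene (74 bp, CFR 2.06). The last of the 8 were near GRF5, a leaf growth gene (841 bp, CFR 2.24), and AT3G02250 (263 bp, CFR 2.30). All 8 were also called in p35S:LFYTERE, where ranks of 12 to 94 were given to them.

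Of the 700 intergenic regions within 1 kb, 64 (9.14%, exact binomial interval 7.11 to 11.5%) overlapped a region called in p35S:LFYTERE by at least 1 bp. Over all 1954 p35S:LFY regions this share was 8.85%, so the members were near the whole list. It was 80 of 853 (9.38%) inside genes and 22 of 324 (6.79%) beyond 1 kb. The differences were -0.236 points (interval -3.11 to 2.72, Fisher's exact test, p = 0.93, adjusted p = 0.959) and 2.35 points (interval -1.44 to 5.63, Fisher's exact test, p = 0.227, adjusted p = 0.363). Neither passed the threshold, and neither did in any of 10 alternatives.

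CFR in the shared regions had a median of 3.27 (range 1.67 to 6.97), against 8.15 (range 2.36 to 4536) in the 636 that were not shared. CFR divides by the coverage in p35S:LFYTERE, so it is not independent of a call there and this difference was not tested. The ranges still overlapped, since 266 regions that were not shared had a CFR of at most 6.97 and 12 had one below 3. The 9 members of lowest CFR were all shared. The median rank was 520.5 for shared regions (quartiles 197 and 902) and 1022.5 for the others (quartiles 553 and 1471).

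Beyond rank 200, sharing became less frequent down the ranks of the class. Among the best 1000 ranks 14.0% of the class were shared, against 14.1% inside genes and 8.98% beyond 1 kb. The trend is therefore not read as particular to the class. Sharing was 6 of 29 (20.7%) in ranks 1 to 100 and 10 of 41 (24.4%) in ranks 101 to 200. It was 15 of 97 (15.5%) in ranks 201 to 500, 19 of 190 (10%) in ranks 501 to 1000, 9 of 190 (4.74%) in ranks 1001 to 1500 and 5 of 153 (3.27%) in ranks 1501 to 1954. Rank and CFR themselves had little relation over the 700 regions (rho -0.08), as the plot of CFR against rank shows. Of the 271 regions with both flanking genes within 1 kb, 32 were shared (11.8%, exact binomial interval 8.22 to 16.3%), against 32 of 429 (7.46%, interval 5.16 to 10.4%) with 1 near flank, and these intervals overlap.

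**Figure D4:**
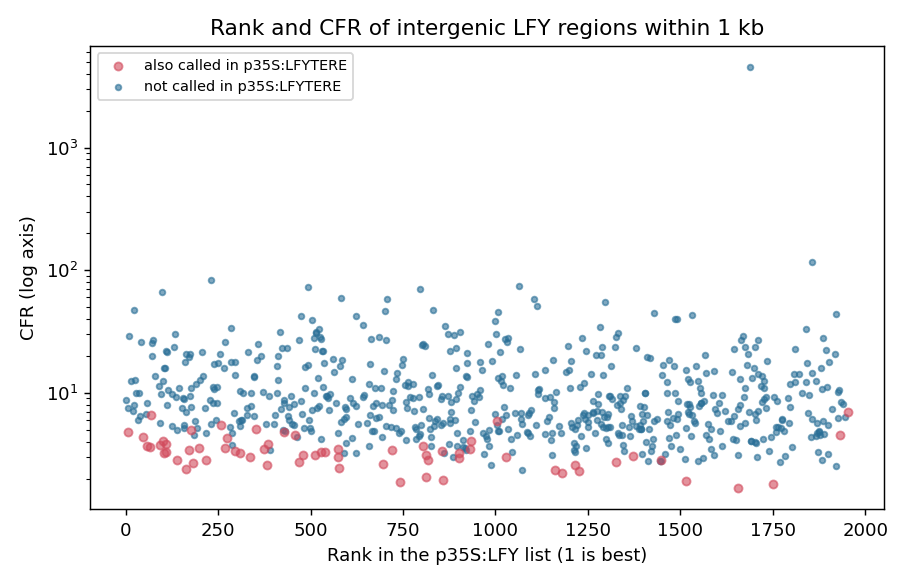
Rank in the p35S:LFY list (x axis, 1 is best) and CFR (y axis, log scale) of the 700 intergenic regions within 1 kb of a gene, coloured by whether the region was also called in p35S:LFYTERE. The 64 shared regions have CFR values of 1.67 to 6.97 and a median rank of 520.5.

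For the shared regions the CFR of the overlapping LFYTERE region had a median of 2.96. The p35S:LFY value divided by it had a median of 1.05 (range 1.00 to 1.60). Both values are the same ratio of fused coverage, taken over overlapping stretches with differently drawn borders. Their closeness is therefore given by construction, and the pairs below are not separate measurements. Among the shared members of best rank, the one 228 bp from RVE8, a circadian clock gene (chromosome 3, 2945769 to 2946253), had a CFR of 4.06 in the LFYTERE list and 4.35 in the p35S:LFY list. The one 136 bp from TUB6, a tubulin gene (chromosome 5, 3963513 to 3964007), had 3.60 and 3.63 in the same order. The one 799 bp from HAM3, a GRAS gene of shoot meristems (chromosome 4, 56071 to 56611), had 2.91 and 3.25. The one 114 bp from TPPE, a trehalose phosphate phosphatase gene, had 3.91 and 4.08. The others of this group were rank 59 next to AT3G51720 (3.29 and 3.67), rank 68 between MEE69 and MES9 (6.17 and 6.66) and rank 93 next to AT4G30500 (3.57 and 3.76).

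Of the 176 LFYTERE regions, 70 (39.8%) were themselves intergenic within 1 kb by the same rule, 80 (45.5%) were inside genes, 20 were distal and 6 lay in other genes. The 70 had a median CFR of 2.92 (interval 2.74 to 3.19, range 1.57 to 5.56), and 66 of them overlapped a p35S:LFY region.

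Floral and hormone genes were looked up by name. The lists held 75 genes, of which 10 flanked one of the 700 regions and 9 (12%) were within 1 kb of it, against the 3.41% of all protein-coding genes given above. The 75 leave out a list of auxin genes, which is not reported here, so the 12% is not a share of all genes looked up. The lists were also drawn up with LFY biology and earlier results of these data in view. For both reasons nothing is read from the difference between 12% and 3.41%. In the floral list, 3 of 19 genes flanked a member and 2 were within 1 kb. AP1, a MADS gene of floral meristem identity, had a region at 241 bp of rank 140, with a CFR of 2.06 in the LFYTERE list and 2.86 in the p35S:LFY list. SEP3, a MADS gene of floral organ identity, flanked a region 4226 bp away that was 42 bp from AT1G24265 and had a CFR of 7.24.

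MYB17, a meristem identity gene also called LMI2, had 2 regions in the same gap of 971 bp. The nearer, at 263 bp, had rank 176 and a CFR of 10.9 and was not called in p35S:LFYTERE. The other, at 653 bp, had rank 573, and its CFR was 3.27 in the LFYTERE list and 3.50 in the p35S:LFY list. Beside this floral gene, then, the 2 regions differed in whether they were called with LFYTERE.

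These lists are short selections of each pathway, so their counts do not describe all its genes. In the list of inflorescence, shoot meristem and flowering time genes, 1 of 16 was near a member. It was MYB37 (RAX1), an axillary meristem gene, with a region at 694 bp of rank 511 and CFR 22.7. The 17 gibberellin genes listed were GA20OX1 to GA20OX3, GA3OX1, GA3OX2, GA2OX1, GA2OX2, GA2OX6, the DELLA genes RGA1, GAI and RGL1 to RGL3, the receptor genes GID1A to GID1C, and ELA1. Of these, CYP714A1 (ELA1), a cytochrome P450 that inactivates gibberellins, flanked a member, with a shared region at 229 bp of rank 177 and CFR values of 4.76 in the LFYTERE list and 4.98 in the p35S:LFY list. GA2OX4, a gibberellin oxidase gene outside the list and named after its value was seen, had a member at 706 bp (rank 1532, CFR 43.1).

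The 14 cytokinin genes listed were 10 type-A response regulators, which dampen the cytokinin response (ARR3 to ARR9 and ARR15 to ARR17), together with CKX1, CKX3, CKX5 and IPT3. Of these, 3 response regulators were near a member. ARR3 had a region at 884 bp (rank 286, CFR 33.8), ARR7 one at 157 bp (rank 1574, CFR 5.61) and ARR15 one at 366 bp (rank 1759, CFR 5.27), the last only 4 bp from NdhO. None of them was called in p35S:LFYTERE. Outside the list, and named after their values were seen, the cytokinin receptor gene HK3 had a member at 158 bp (rank 1701, CFR 6.68) and the phosphotransfer gene AHP1 one at 793 bp (rank 1903, CFR 18.0). Of the 9 abscisic acid genes listed (PYL4, PYL5, PYL6, CYP707A1 to CYP707A4, NCED3 and ABI5), 2 were near a member. PYL4, an abscisic acid receptor gene, had one at 2 bp (chromosome 2, 16049719 to 16050113, rank 670, CFR 7.87), and CYP707A2, which encodes an abscisic acid hydroxylase, had one at 604 bp (rank 1236, CFR 6.57).

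The closest midpoints were at 1 bp from AT4G01090 (rank 660, CFR 17.2), 2 bp from PYL4, 3 bp from ETFQO, an electron transfer gene of mitochondria (rank 175, CFR 9.44), and 3 bp from AT3G20180 (rank 416, CFR 31.5). BOP1, a gene of leaf and flower patterning, had one at 5 bp (chromosome 3, 21147383 to 21147724, rank 1301, CFR 6.40). The smallest gap, 46 bp between emb2739 and AT4G14600, was wholly covered by its region of 434 bp (rank 380, CFR 5.59). The next were the 52 bp between AT5G49560 and PNG1 (CFR 4.17), the 64 bp between MEE69 and MES9 (CFR 6.66) and the 71 bp between AT1G67950 and POD1 (CFR 5.44). All 4 of these had a CFR below the class median of 7.43.

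At the other end, a gap of 36658 bp between ALDH6B2 and AGL44, a MADS gene of the root response to nitrate, held a region 228 bp from AGL44 (rank 794, CFR 4.45). The gap of 26699 bp between LTPG2 and AT3G43740 held one of CFR 8.21, the gap of 22326 bp between AT2G13900 and AT2G13950 one of CFR 6.45, and the gap of 14167 bp between CYP714A1 and GDU5 the shared region named above.

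Around the limit of 1000 bp, the members just inside were 992 bp from MYB34 (CFR 27.9), 994 bp from WRKY3 (CFR 6.65), 997 bp from AT1G29060 (CFR 14.8) and 997 bp from AT3G50640 (CFR 10.98). Just outside were regions at 1001 bp from ATK3 (CFR 4.80), 1001 bp from AT1G80400 (CFR 8.24), 1005 bp from HAM4 (CFR 2.72) and 1006 bp from AT2G23450 (CFR 6.07). The limit was set by the rule and no step in distance is read from these values.

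Where 1 gap held several regions, their CFR values could differ widely. There were 25 such gaps with 51 regions, 24 gaps with 2 and 1 with 3. The highest CFR divided by the lowest in a gap had a median of 1.54 (range 1.03 to 23.9) and was 2 or more in 11 gaps. The midpoints in such gaps were a median of 482 bp apart (range 269 to 4408).

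**Figure D5:**
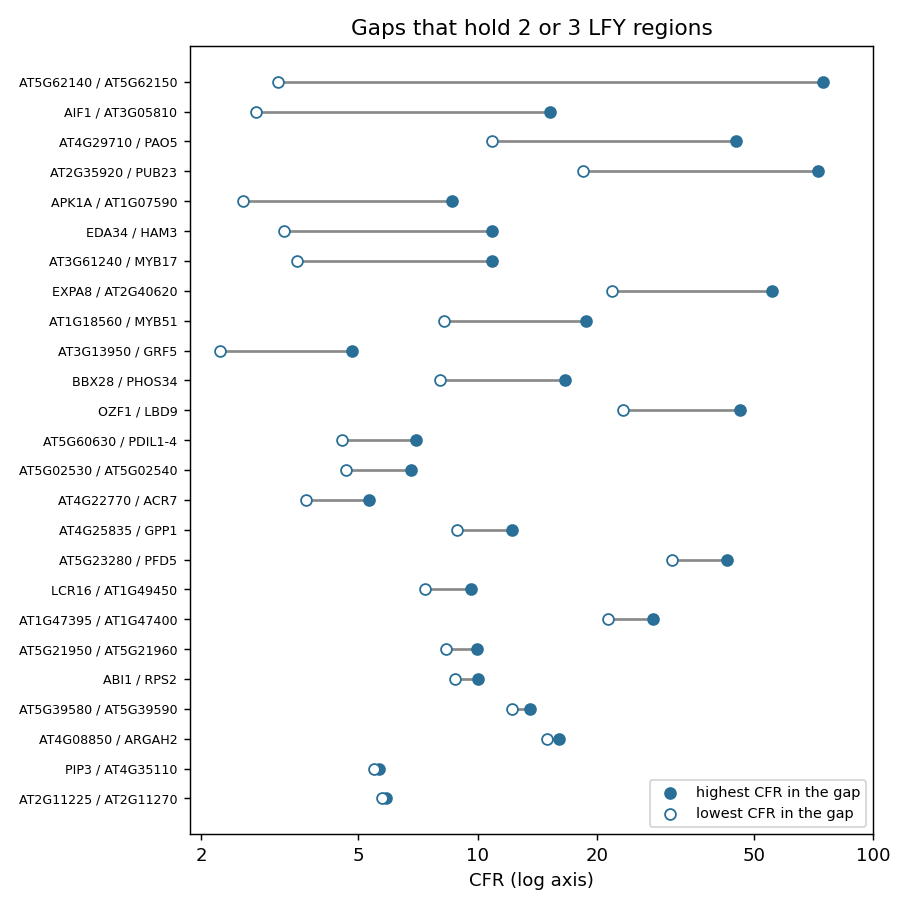
Each line is 1 of the 25 gaps that hold 2 or 3 intergenic LFY regions within 1 kb of a gene, named by its flanking genes, with the lowest CFR (open circle) and the highest (filled circle) on a log x axis. The widest spread, 3.13 and 74.8, was between AT5G62140 and AT5G62150, and the median ratio was 1.54.

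The widest spread was in the gap between AT5G62140 and AT5G62150. There a region of rank 480 had a CFR of 3.13 and was called in p35S:LFYTERE, while another of rank 1064 had a CFR of 74.8 and was not, a ratio of 23.9. Between AIF1 and AT3G05810 lay 3 regions with CFR values of 2.75, 15.2 and 4.78, of which the last was shared. The pair between AT2G35920 and PUB23 had 18.5 and 72.5, and the pair between AT4G29710 and PAO5 had 10.9 and 44.9. Beside HAM3 the values were 3.25 and 10.9, and between ABI1, a phosphatase gene of abscisic acid signalling, and RPS2, a disease resistance gene, they were 8.78 and 10.03.

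Of the 25 gaps, 7 held a shared region and in 1 all were shared. In that one, between AT5G60630 and PDIL1-4, both regions overlapped the same LFYTERE region, so the 64 shared regions met 63 LFYTERE regions. Regions so close together can share sequenced fragments, and their values are not separate measurements to that extent. Counted by region, sharing was 9.14% in the class and 8.85% over all p35S:LFY regions. A gap with several regions can hold a shared one more readily, so nothing is read from the count of 7 gaps.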

How the data were processed

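ChIP-seq reads of 2 replicates each of p35S:LFYTERE, p35S:LFY and Col-0 seedlings were mapped by the authors with the SHORE pipeline, and duplicates were removed. Regions had to pass in every comparison of a replicate with a control. The deposited lists give TAIR10 coordinates, the rank, which is a score of order, and the CFR, a linear ratio of normalised coverage. The authors normalised coverage with regressions, between replicates on peaks of the same genotype and between genotypes on background peaks detected in Col-0. The 1 infinite CFR was kept as such in ranks and medians.

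Genes came from a RefSeq table (TAIR10.1), used for names and distances only. Distances run between a region midpoint and a gene end. Shares were compared by two-sided Fisher's exact tests with Benjamini-Hochberg adjustment over 8 comparisons (threshold 0.05), and intervals of shares are exact binomial. Named members were those of best rank, highest and lowest CFR, nearest position, extreme gaps, best shared rank, those at the limit, and those next to listed genes. Members and lists were chosen with earlier results of these data known. Alternatives varied the limit, the distance measure, the overlap, the ranks kept and the treatment of high CFR values and close regions.

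To check that positions of both assemblies could be used together, regions were shifted. Shifted up and down the coordinates by 200 bp, 56.1% and 53.9% were outside coding genes and 37.1% and 33.4% in the class described. By 1000 bp these were 45.5% and 42.4%, and 26.6% and 23.8%, against 56.3% and 35.8% unshifted. A small offset cannot be told apart from none by this check. Sequence and strand were not analysed here, and a list of auxin genes is not reported here. Python 3.11.15, pandas 2.3.3, numpy 2.4.6, scipy 1.17.1 and matplotlib 3.10.9 were used, and the classification and the test were checked on simulated data.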

Additional observations from a re-analysis of the deposited data

Results flagged for a closer look

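Some regions were called only in the mutant line's list. Of the 70 LFYTERE regions that were intergenic within 1 kb of a gene, 4 overlapped no region of the p35S:LFY list. Over all 176 LFYTERE regions, 8 overlapped none, so such regions are not read as particular to the class. The 4 are described here. The first had LFYTERE rank 7 and a CFR of 1.83 (chromosome 2, 13646936 to 13647193) and lay 635 bp from OFP16, with the nearest p35S:LFY region 267 bp away. The second had rank 36 and a CFR of 2.07 (chromosome 4, 15412633 to 15412867) and lay 264 bp from GPX7, a glutathione peroxidase gene. The third had rank 130 and a CFR of 3.63 (chromosome 1, 27408454 to 27408684) and lay 348 bp from NF-YA3, a subunit of a CCAAT-binding factor. The fourth had rank 150 and a CFR of 1.97 (chromosome 4, 11662424 to 11662716) and lay 616 bp from sks4. All 4 have a CFR above 1, so the coverage over them was still lower in p35S:LFYTERE than in p35S:LFY, although they were called in p35S:LFYTERE alone.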

How the results depend on the processing

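Of 118 values recomputed under another setting, 92 kept their direction and call, moved by less than their interval or, for the number of regions, stayed within 1.5 times. That number was 493 with a limit of 500 bp and 900 with one of 2000 bp. Keeping only regions with no base in any gene left 432, with a median rank of 1067.5, width of 324.5 bp and gap of 2258.5 bp. The share of ranks up to 977 then differed by -8.20 points against regions inside genes, and width against distal regions by -3.67 points. With a limit of 500 bp the median gap was 1277 bp, sharing against inside genes differed by 0.560 points, the share of ranks up to 977 by 2.97 against inside genes and by 5.69 against distal, and width against distal by 9.05. With a limit of 2000 bp the gap was 2406.5 bp, CFR above the median differed by 7.85 points against inside genes (adjusted p = 0.0046 by Fisher's exact test) and by -5.65 against distal, and sharing against distal by -0.538. Measured to the nearer edge, the median gap was 1935.5 bp. The best 1000 ranks left 357 regions, with a median CFR of 8.03, rank of 524, width of 390 bp, gap of 1662 bp and 14.0% shared. CFR against distal then differed by -7.97 points and the share of ranks up to 977 against inside genes by 0.545. Nearly all regions kept there have such a rank by construction (98.0% and 97.5%), so that value cannot show a difference in rank. Sharing against inside genes differed by 0.182 points when the midpoint had to overlap and by 0.0903 when 50% of the shorter region did. Where not said otherwise the cause was not tested, and a limit or a selection changes the regions compared by construction.

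No paired analysis was possible because the lists hold 1 value per region for the fused replicates, and for the same reason leaving out a replicate was not run. Small classes limit the shares, as the intervals show.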

Other observations

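Some genes had LFY regions close by on both sides. For 12 protein-coding genes a region lay within 1 kb of each end. CBF4, a transcription factor gene of the drought response, had one at 293 bp (rank 90, CFR 11.4) and one at 504 bp (rank 854, CFR 8.84). DOF6, a zinc finger transcription factor gene, had one at 72 bp with a CFR of 40.1 and one at 830 bp with 9.47. ELIP1, which encodes an early light-induced protein, had CFR values of 4.67 and 8.46 on its sides, and EXPB3, an expansin gene, had 5.07 and 5.95. The CFR ratio between the sides was 2 or more for 5 of the 12 genes and at most 5.06, at AT5G49280 (13.9 and 2.74). That gene and AT3G09980 had a region on 1 side called in p35S:LFYTERE, and no gene had both. Over all p35S:LFY regions 8.85% were called there, and with so few genes nothing is read from these counts.

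The share of the 700 regions also called in p35S:LFYTERE is given here by chromosome. It was 13 of 190 (6.84%) on chromosome 1, 3 of 113 (2.65%, exact binomial interval 0.551 to 7.56%) on chromosome 2, 20 of 141 (14.2%, interval 8.88 to 21.1%) on chromosome 3, 11 of 115 (9.57%) on chromosome 4 and 17 of 141 (12.1%) on chromosome 5. Over all p35S:LFY regions it was 6.49, 5.81, 12.1, 12.0 and 9.31% on chromosomes 1 to 5, so it varied in the whole list too, and differences between chromosomes were not tested.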
